A study of Mus musculus with 17 samples.

Results

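Pdk4, Selenop and Txnip are metabolic genes known as FOXO targets. They are described here with the kinases, arrestin and regulators that act beside them (Pdk1, Pdk2, Pdk3, Arrdc4, Ppargc1a and Klf15). The samples are brain of mice with Foxo1, Foxo3 and Foxo4 deleted in neurons and glia, and of WT mice. The 9 genes are read by 18 probe sets annotated with one of these symbols alone, of 45037 mouse probe sets on the array, and 9 genes of 18193. Pdk1 has 4 probe sets, Ppargc1a 5, Txnip and Arrdc4 2 each, and the others 1 each. The genes were chosen by their known link to FOXO and to fuel use and with their difference between KO and WT already seen in these arrays, so every KO minus WT value of a member is a description and was not tested. All 18 probe sets are accounted for, since no filter on dim signals was set.

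Total RNA from mouse brain was measured on Affymetrix mouse arrays in 17 samples. The KO samples carry the genotype FOXO 1/3/4 KO, made with floxed Foxo1, Foxo3 and Foxo4 and the hGFAP-cre transgene. That transgene acts in the common progenitors of neurons and glia, so that both lose these genes. The study did not delete Foxo6, and it saw FOXO1 staining remain in endothelial cells of KO mice. The WT samples carry the genotype WT. The mice were on a mixed FVB and B6 background unless stated otherwise, and neither age nor sex is given for these samples. By the study's methods the tissue was dentate gyrus cut out by laser, while the labels name only brain. Of the 15 unmarked arrays, 8 were KO and 7 WT. By the number in the title, 11 belong to one array series (6 KO and 5 WT) and 4 to another (2 KO and 2 WT), called the larger and the smaller series here. What that number marks is not stated. The remaining 2 arrays, of the marks 433 (KO) and 437 (WT), carry the additional mark CA13, whose meaning is not given, and were kept out of both groups. Arrays are named by genotype and mark. Each mark is read as a mouse, which the labels do not state, so the spread behind a p-value is that between samples and may be partly technical. Every level below is a quantile normalized log2(signal + 32), on which changes of dim probe sets are understated. The levels of separate probe sets were not compared.

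FOXO proteins are transcription factors that insulin signalling drives out of the nucleus, so that their targets are switched on when insulin is low. In muscle and liver several of these targets turn cells from glucose to fat as a fuel. Pyruvate dehydrogenase kinases close the entry of pyruvate into the citric acid cycle, and Pdk4 is the one best known to answer to fasting and FOXO. Txnip and Arrdc4 are related arrestin-fold proteins that limit glucose uptake and are switched on by the glucose sensors MondoA and ChREBP. Selenop carries selenium in the blood to the brain, where it is needed to make antioxidant selenoproteins.

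The upstream sequences of Pdk4, Txnip and Arrdc4 are shown because Pdk4 had the lower mean level in KO and because the other 2 are related arrestin genes. How far the levels of that pair followed each other across arrays is given below. Each is the 250 bases before the RefSeq start site in GRCm38.p6, 5′ to 3′ on the strand of the gene. Capitals mark GTAAACA (the FOXO consensus), CACGTG (an E-box, the core of the element that MondoA and ChREBP bind) and CCAAT, on either strand.
Pdk4: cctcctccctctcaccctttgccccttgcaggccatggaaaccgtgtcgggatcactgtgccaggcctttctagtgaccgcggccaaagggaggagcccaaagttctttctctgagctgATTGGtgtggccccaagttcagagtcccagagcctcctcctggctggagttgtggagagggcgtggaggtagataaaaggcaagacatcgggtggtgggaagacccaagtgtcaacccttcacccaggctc
Txnip: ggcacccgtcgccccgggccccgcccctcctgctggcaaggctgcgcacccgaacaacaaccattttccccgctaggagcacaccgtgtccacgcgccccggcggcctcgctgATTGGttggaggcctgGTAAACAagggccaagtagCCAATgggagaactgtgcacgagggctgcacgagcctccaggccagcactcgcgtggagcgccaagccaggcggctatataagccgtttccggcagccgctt
Arrdc4: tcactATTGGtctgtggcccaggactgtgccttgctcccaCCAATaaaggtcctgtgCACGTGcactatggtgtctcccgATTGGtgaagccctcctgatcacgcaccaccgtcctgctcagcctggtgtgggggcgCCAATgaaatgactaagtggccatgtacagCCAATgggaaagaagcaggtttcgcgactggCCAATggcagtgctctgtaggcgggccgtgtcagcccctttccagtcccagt
The Pdk4 sequence lies at chr6:5496279-5496528 (minus strand), that of Txnip at chr3:96557707-96557956 (plus strand) and that of Arrdc4 at chr7:68749239-68749488 (minus strand). Motifs were counted in windows that also hold the first 50 bases after the start, of which there are 13 for the 9 members and 32851 in all. GTAAACA, searched on both strands, stood in 3.65% of all windows and in 2 of the 13 member windows, of Txnip (first base at -121 from the start) and Selenop (at -24). The Selenop match lies at chr15:3270953-3270959 in the third of its windows, shown here with 11 bases on each side.
Selenop site: cagagggcgagGTAAACAacagggctata
The window of Pdk4 held no such match. The letters CAAAACA, a core of insulin response elements, were in 6.28% of all windows and in 0 of the members. CACGTG was in 7.15% of all windows and in 3 of the 13 member windows, of Pdk2, Arrdc4 and Klf15, the last of which held it 3 times. The GC box GGGCGG was in 35.7% of all windows and in 4 of the 13 member windows. CCAAT, looked for after the sequences had been seen, was in 37.4% of all windows and in 6 of the 13 member windows. The Arrdc4 window held it 6 times, as only 0.0791% of all windows did as often or more, and the Txnip window held it 2 times, as 11.7% did. None of the motifs overlaps another in the sequences printed. A match is a string of letters and not a bound site, and a window without one says nothing of the factor.

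The labels held for Foxo1. Its brightest probe set had a mean level of 13.19 ± 0.50 (SD, n = 7) in WT arrays and 8.11 ± 0.77 (SD, n = 8) in KO arrays, which is -5.08 on the log2 scale (standard error 0.30, adjusted p = 1.16e-07 from limma). Its other probe sets had -1.88 and -3.00, which passed, and in the dimmest -0.06 (standard error 0.30), which did not. Foxo3 had -0.46 (standard error 0.17) and Foxo4 0.43 (standard error 0.28) in their brightest probe sets, the other Foxo4 probe set went the opposite way with -0.56 (standard error 0.18), and none of these passed the test. Where the probes lie relative to the deleted exons is not given, and a probe set outside them checks nothing. The granule neurons of the dentate gyrus were checked by 12 markers, which had a mean level of 11.47 to 11.82 in 14 of the unmarked arrays. In the library labelled 433, a KO, that mean was 7.82, and 14 markers of CA pyramidal neurons, from the neighbouring hippocampal fields, had a mean of 10.96 against 8.24 to 8.99 in the other unmarked arrays and the CA13-marked array of 433. The CA13-marked array of 433 had a granule mean of 11.58 and that of 437 a granule mean of 7.81. Whether the labels of the 433 arrays are exchanged cannot be told from the sources, and both arrays were left as labelled. Member values are therefore also given without the library labelled 433 where it moved them. With the CA13-marked array of 433 in its place, the KO minus WT difference was -0.62 for Pdk4, -0.69 for Selenop, -0.32 for the brighter Txnip probe set and -0.35 for Klf15, given as a description. In a piece of tissue, fewer cells of a type and less RNA per cell cannot be told apart.

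Of the members, Pdk4 and Selenop had the largest KO minus WT differences relative to their errors, both with the lower mean in KO. Among all 45037 probe sets, 6 passed an adjusted p of 0.05 between KO and WT, which is 0.0133%, and 0 of the 18 member probe sets did. At an unadjusted p under 0.05, 1.68% of all probe sets were lower in KO and 1.54% higher, against 2 and 0 of the members, the 2 being Pdk4 and Selenop. Since the members were chosen with this contrast known, nothing is read from those counts. In 0.02% of all probe sets every KO array lay below every WT array and in 0.00888% above, and 0 members did either. Of the 18 probe sets 8 had a negative difference and 10 a positive one, with a median of 0.04 against 0.00 over all probe sets.

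Pdk4 (chromosome 6, 5483351 to 5496278), the pyruvate dehydrogenase kinase that fasting induces, had WT levels of 7.05, 7.06, 7.07, 7.45, 7.37, 7.77 and 6.61, of which the last 2 belong to the smaller series. Its KO levels were 6.69, 6.75, 6.70, 6.28, 6.86, 6.41, 6.49 and 6.81, of which the last 2 belong to the smaller series. Of the 7 WT arrays 6 lay above the highest KO array, and the groups overlapped through WT 392 alone, at 6.61. On the deposited linear scale the WT signal averaged 118.4 ± 34.7 (SD, n = 7) and the KO signal 68.0 ± 17.3 (SD, n = 8). The log2 fold change was -0.57 (standard error 0.18, 95% interval -0.95 to -0.20), a WT level 1.49 times that of KO. The probe set was at the 47.9th percentile of level, so that the added 32 takes up a share of its signal, and the difference was -0.77 with only 1 added and -0.33 with the largest amount tried. Without the library labelled 433 it was -0.54. It was -0.58 in the larger series and -0.54 in the smaller, where it depended on a single WT array, from -1.13 without WT 392 to 0.04 without WT 393. The difference between the series themselves was 0.01 (standard error 0.20, 95% interval -0.41 to 0.44).

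Selenop (chromosome 15, 3270767 to 3280510), the selenium carrier, was at the 96.2th percentile of level. Its WT levels were 12.16, 12.54, 12.65, 12.77 and 11.96 in the larger series and 13.05 and 12.999 in the smaller series. Its KO levels were 12.31, 12.12, 12.06, 11.68, 11.88 and 12.14 in the larger series and 11.53 and 11.64 in the smaller series. Every KO array was below the WT median, 5 WT arrays lay above the highest KO array, and the 4 arrays of the smaller series held the 2 highest and the 2 lowest of the 15 levels. On the linear scale the WT signal averaged 6379 ± 1748 (SD, n = 7) and the KO signal 3892 ± 744 (SD, n = 8). The log2 fold change was -0.67 (standard error 0.17, 95% interval -1.03 to -0.31), a WT level 1.59 times that of KO, and -0.70 without the library labelled 433. It was -0.39 (standard error 0.16) in the larger series and -1.44 (standard error 0.20) in the smaller.
The difference between these values, the interaction of genotype and series, was -1.05 (standard error 0.29). At an adjusted p of 0.05 the interaction called 0% of all probe sets. At an unadjusted p under 0.05 it held for 4.84% of them and for 2 member probe sets, Selenop and the brightest of Pdk1. The members were chosen with KO against WT by series known, so their interactions are descriptions and nothing is read from these counts.

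Selenop is made by several cell types of the brain, astrocytes among them, and its level moved with markers of glia and vessels from array to array. Over the 14 unmarked arrays without the library labelled 433, its deviations from the group means had a Pearson r of 0.69 with the mean of 8 of 8 astrocyte markers, 0.66 with 6 of 7 oligodendrocyte markers, 0.65 with 6 of 6 mural cell markers and 0.59 with 7 of 8 endothelial markers. These are descriptions over arrays that share their scaling, and the series means were not taken out of them. For microglia (9 of 10 markers) r was 0.43 and for choroid plexus (8 of 9) 0.09. The choroid plexus product Ttr itself ran from 5.37 to 15.20 over the 15 arrays. Its KO minus WT difference was -1.03 (standard error 1.48), and -1.76 within the smaller series. The mean of the choroid plexus markers differed by -0.16, and by -0.11 within the smaller series.
The KO minus WT difference of the marker means was -0.01 for astrocytes, 0.50 for oligodendrocytes, -0.10 for mural cells and -0.05 for endothelium, with 0 markers called in any of these lists. Without the library labelled 433 it was 0.08, 0.55, -0.16 and -0.10, so that the astrocyte value changed sign. The summed astrocyte signal was 22444 to 31769 in KO and 22718 to 33692 in WT. For oligodendrocytes the sum was 29403 to 55054 in KO and 17367 to 41311 in WT, for mural cells 736 to 1934 and 846 to 2358, and for endothelium 946 to 3288 and 1196 to 3077. The endothelial marker Pecam1 was dim throughout, at 5.66 to 38.6 of signal. Within the smaller series, where the Selenop difference was -1.44, the mural and endothelial means also differed, by -0.79 and -0.54, and those of astrocytes and oligodendrocytes by -0.18 and -0.01. Within the larger series the Selenop difference was -0.39, while the marker means were higher in KO. They differed there by 0.17 for mural cells, 0.12 for endothelium, 0.07 for astrocytes and 0.71 for oligodendrocytes, with the library labelled 433 included. The part of these cells in the Selenop values was not tested.

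**Figure D1:**
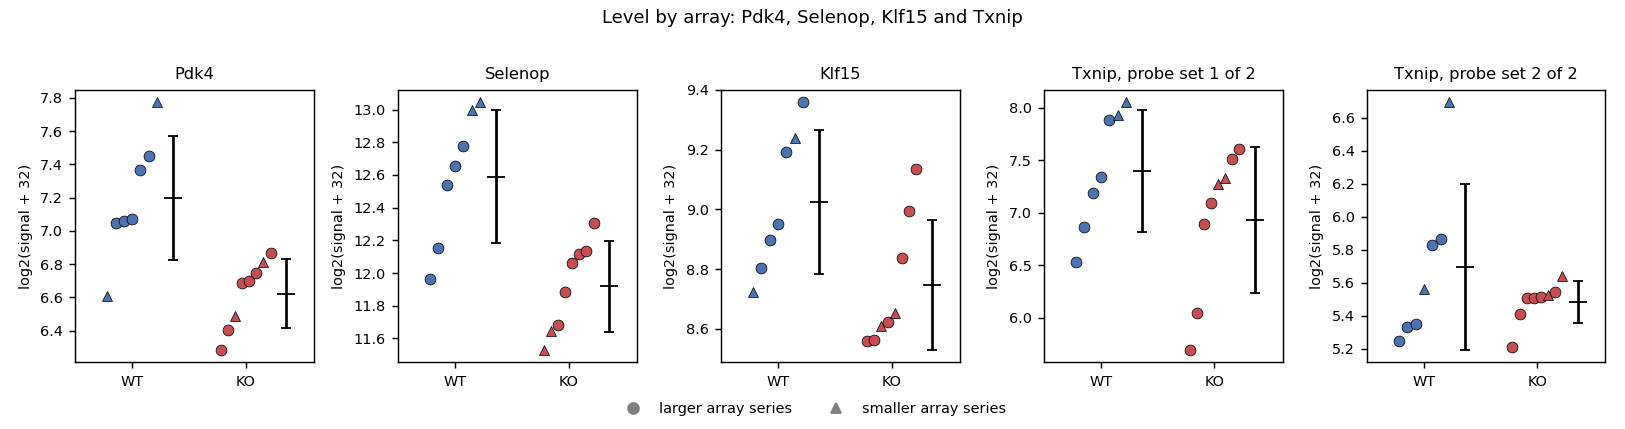
Quantile normalized log2(signal + 32) of the probe sets of Pdk4, Selenop, Klf15 and Txnip in 7 WT and 8 KO arrays, with circles for the larger series, triangles for the smaller series and bars for mean ± SD. In Pdk4, 6 WT arrays lie above the highest KO array at 6.86, and in Selenop the triangles are the 2 highest WT and the 2 lowest KO arrays.

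Klf15 (chromosome 6, 90461043 to 90491803), a Krüppel-like factor induced by glucocorticoids and fasting that switches cells to amino acid and fat use, had WT levels of 8.72 to 9.36 with a median of 8.95. The KO levels ran from 8.56 to 9.14 with a median of 8.64. Of the KO arrays 5 lay below the lowest WT array, and 3 WT arrays lay above the highest KO array. The log2 fold change was -0.28 (standard error 0.14, 95% interval -0.57 to 0.02), and it was -0.26 in the larger series and -0.35 in the smaller. Across the alternatives it stayed between -0.35 and -0.22. Its E-box matches, whose first bases lie at -228, -172 and -3 from the start, are these, with the match in capitals.
Klf15 site 1: tcccgaggtccCACGTGgtctgcacttc
Klf15 site 2: agaacccgtctCACGTGcgcatcggagg
Klf15 site 3: gcccgcggcgtCACGTGagcggccggag
The sites lie at chr6:90462348-90462353, chr6:90462404-90462409 and chr6:90462573-90462578.

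Txnip (chromosome 3, 96557957 to 96561857), which binds thioredoxin and lowers glucose uptake, was read by 2 probe sets that did not move together (r = 0.06 over 14 arrays). The brighter ran from 6.53 to 8.05 over the WT arrays, with a median of 7.34. Over the KO arrays it ran from 5.69 to 7.61, with a median of 7.18. The groups overlapped over most of their range, with 3 WT arrays above the highest KO array and 2 KO arrays, 903 and the library labelled 433, below the lowest WT array. The log2 fold change was -0.47 (standard error 0.31, 95% interval -1.12 to 0.18), and -0.34 without the library labelled 433. The dimmer probe set lay at the 11.5th percentile of level and had -0.21 (standard error 0.17), which became -0.05 without WT 392, the array with its highest level. Within the larger series the probe sets had -0.36 and -0.07, and within the smaller series -0.69 and -0.54. Like Selenop, the brighter probe set moved with the oligodendrocyte markers (r = 0.57 over 14 arrays, series means left in) and less with the endothelial ones (0.43). The part of these cells in it was not tested.

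Arrdc4 (chromosome 7, 68736994 to 68749238), the arrestin related to Txnip, had means that differed between genotypes by less than their errors in the fit without series. Its brighter probe set lay at 7.19 to 8.90 over the WT arrays (median 7.36) and at 7.29 to 8.71 over the KO arrays (median 7.97). In both genotypes the 2 arrays of the smaller series stood highest, at 8.76 and 8.90 in WT and at 8.71 and 8.67 in KO. The log2 fold change was 0.15 (standard error 0.30), with 0.31 in the larger series and -0.14 in the smaller, and that of the dimmer probe set was 0.06 (standard error 0.24). With series in the fit they were 0.19 (standard error 0.18) and 0.09 (standard error 0.21). The probe sets of Arrdc4 followed each other (r = 0.79 over 14 arrays). The brighter probe sets of Arrdc4 and Txnip had an r of 0.58, which was 0.37 after the series means were taken out. The brighter Arrdc4 probe set had 0.74 with Pdk3, -0.85 with the brightest of Ppargc1a and -0.34 with the brightest of Pdk1. After the series means were taken out these were 0.03, -0.14 and 0.54.

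The other pyruvate dehydrogenase kinases had no common direction. Pdk2 (chromosome 11, 95026258 to 95041371), the widespread form, had -0.06 (standard error 0.28), with levels of 5.32 to 6.99 over the WT arrays and 5.44 to 6.95 over the KO arrays. The ranges were nearly the same. Pdk3 (chromosome X, 93764616 to 93832150) had -0.22 (standard error 0.23), with 7.15 to 8.15 over the WT arrays and 6.62 to 8.31 over the KO arrays. Pdk1 (chromosome 2, 71873215 to 71903858), the kinase that hypoxia induces, had 0.26 (standard error 0.29) in its brightest probe set and 0.04, 0.36 and 0.00 in the dimmer ones.
In that brightest set the 3 lowest arrays were WT, with 9.70 in WT 437 and 9.68 and 9.45 in the WT arrays of the smaller series, while the other 12 arrays lay at 10.40 to 11.62. The difference was -0.09 in the larger series and 1.15 in the smaller, an interaction of 1.24 (standard error 0.53), as a description. The Pdk1 probe sets did not agree in this. The second had 0.02 and 0.03 in the larger and smaller series, the third 0.08 and 1.11, and the fourth -0.28 and 0.63. Pdk4 was the sole one of these kinases whose mean was lower in KO by more than 2 standard errors, as a description of members chosen with these values known.

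Ppargc1a (chromosome 5, 51454249 to 52115853) encodes the coactivator of mitochondrial genes that FOXO1 works with in liver. Over the 15 arrays its 5 probe sets had small positive differences, from 0.05 to 0.23, with standard errors of 0.13 to 0.44. The brightest kept this sign in 22 of 26 alternatives and ran from -0.14 to 0.34 with each array left out. The next brightest kept it in 19 of 26 and ran from -0.07 to 0.17. Within the smaller series the next brightest had -0.15 and the dimmest -0.19, while the brightest had 0.23 and the others 0.21 and 0.17. The brightest Ppargc1a probe set had a median of 10.25 in both groups. It lay at 8.07 to 10.73 over the WT arrays and 8.58 to 11.23 over the KO arrays. The 4 arrays of the smaller series, at 8.67 and 8.07 in WT and 8.58 and 8.63 in KO, stood more than 1 log2 unit below the rest whatever their genotype.

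**Figure D2:**
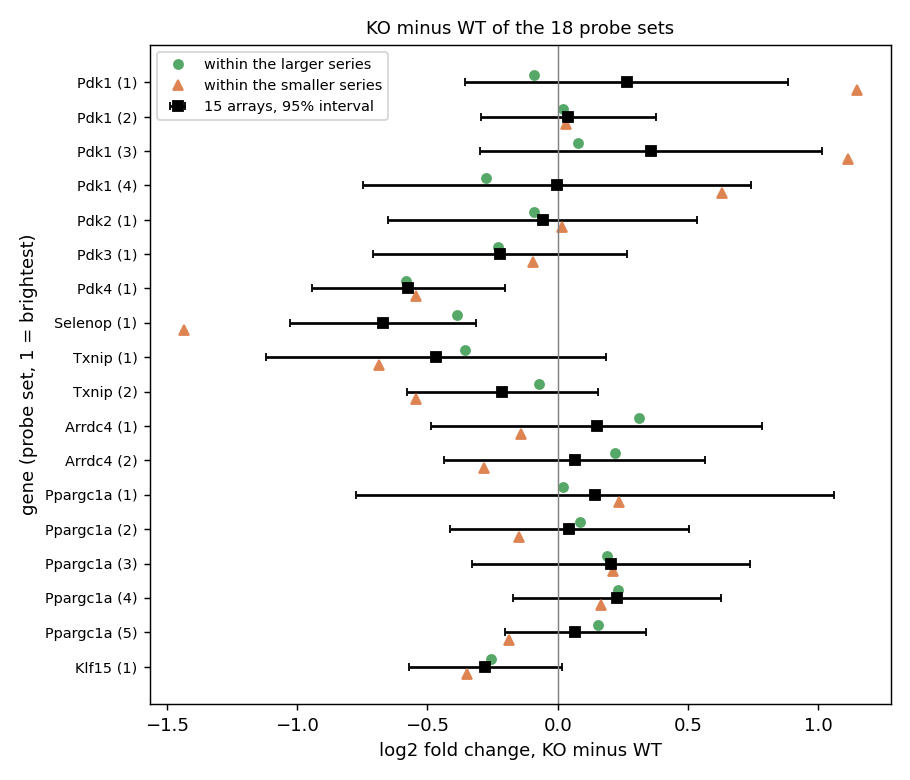
KO minus WT log2 fold change of the 18 probe sets over 15 arrays with 95% intervals (squares), and within the larger series (circles) and the smaller series (triangles). The intervals of Pdk4 (-0.95 to -0.20) and Selenop (-1.03 to -0.31) lie below 0, and the series differ most for Selenop, at -0.39 and -1.44, and for the brightest Pdk1 probe set, at -0.09 and 1.15.

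Within the smaller series alone, both KO arrays lay below both WT arrays for 5 member probe sets, those of Selenop and Klf15, the brighter of Txnip and both of Arrdc4, beside 15.4% of all probe sets. The choice of members used this contrast, and nothing is read from the count.

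Differences between the array series were called for 5 of the 18 member probe sets. With genotype in the fit, 4.45% of all probe sets were higher and 5.37% lower in the smaller series than in the larger series at an adjusted p of 0.05, and of the members 2 were higher and 3 lower. Ppargc1a was the lowest, with a series difference of -1.87 (standard error 0.21, adjusted p = 0.00022 from limma), so that the larger series was 3.66 times as high. The arrays of the smaller series lay at 8.07 to 8.67 and those of the larger series at 9.77 to 11.23, with no overlap. The second Ppargc1a probe set had -0.65 (standard error 0.19, adjusted p = 0.039 from limma), and the other 3 had -0.25, -0.37 and -0.17 and did not pass.
The brighter Arrdc4 probe set was 2.25 times as high in the smaller series, a difference of 1.17 (standard error 0.20, adjusted p = 0.0020 from limma), with 8.67 to 8.90 in the smaller series against 7.19 to 8.09. The dimmer one had 0.59 (standard error 0.23, adjusted p = 0.12 from limma). Pdk3 had 0.78 (standard error 0.19, adjusted p = 0.014 from limma), with 7.79 to 8.31 against 6.62 to 7.71. The second Pdk1 probe set had -0.50 (standard error 0.13, adjusted p = 0.024 from limma), with 8.42 to 8.53 against 8.74 to 9.28.

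Every array of the smaller series was thus above every array of the larger series in 2 member probe sets, Pdk3 and the brighter of Arrdc4, and below in 2, the brightest of Ppargc1a and the second of Pdk1, where 1.94% and 2.5% of all probe sets did so. Selenop (0.07, 95% interval -0.33 to 0.47), Klf15 (-0.11, -0.43 to 0.21) and Pdk2 (-0.14, -0.82 to 0.54) did not pass, and neither did the Txnip probe sets at 0.66 (-0.01 to 1.33) and 0.37 (-0.02 to 0.75). The Selenop value is a mean over opposite differences between the series, 0.61 in WT and -0.44 in KO, and does not show a level that is stable between them. The brightest probe sets of Pdk3 and Ppargc1a ran against each other over the 14 arrays, with r = -0.91, which was -0.67 with the series means taken out. The log2 ratio of the Gapdh 3′ to 5′ control probe sets, a sign of RNA quality, was 5.06 to 5.29 in the smaller series and 4.89 to 6.10 in the larger series. With that ratio in the fit, 2 of the 5 member calls passed, those of the brightest Ppargc1a probe set and the brighter Arrdc4 probe set. The part of RNA quality was not tested further.

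**Figure D3:**
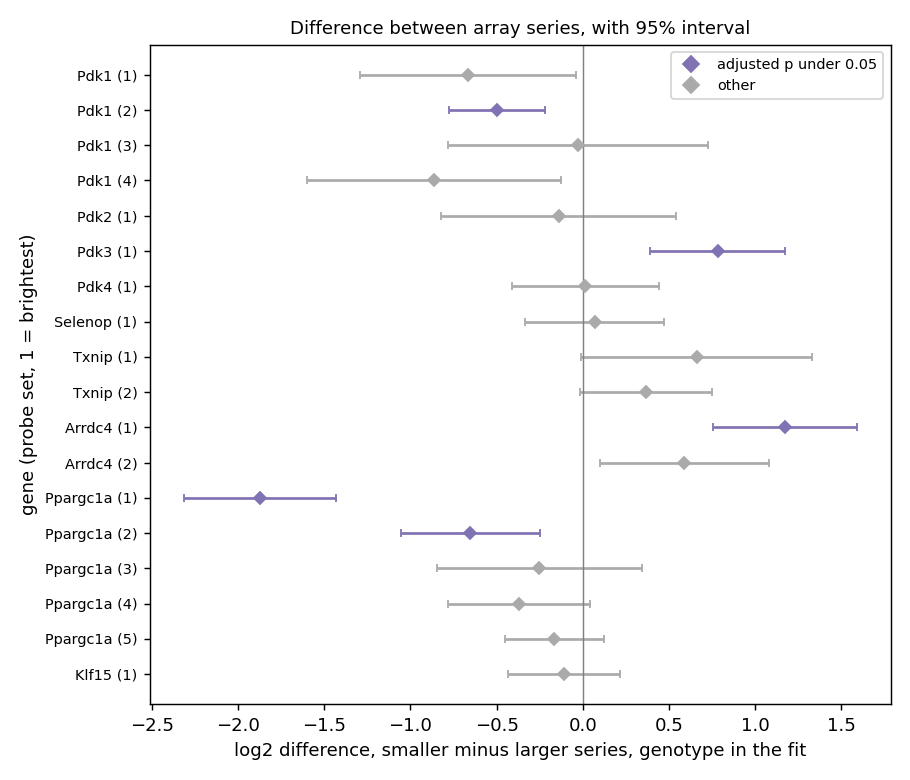
Difference between the smaller and the larger array series (log2, genotype in the fit) for the 18 probe sets, with 95% intervals and with calls at an adjusted p of 0.05 in violet. The brightest Ppargc1a probe set lies at -1.87 and the brighter Arrdc4 probe set at 1.17. Pdk4 (0.01) and Selenop (0.07) lie near 0, Selenop as the mean of opposite differences in WT (0.61) and KO (-0.44).

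**Figure D4:**
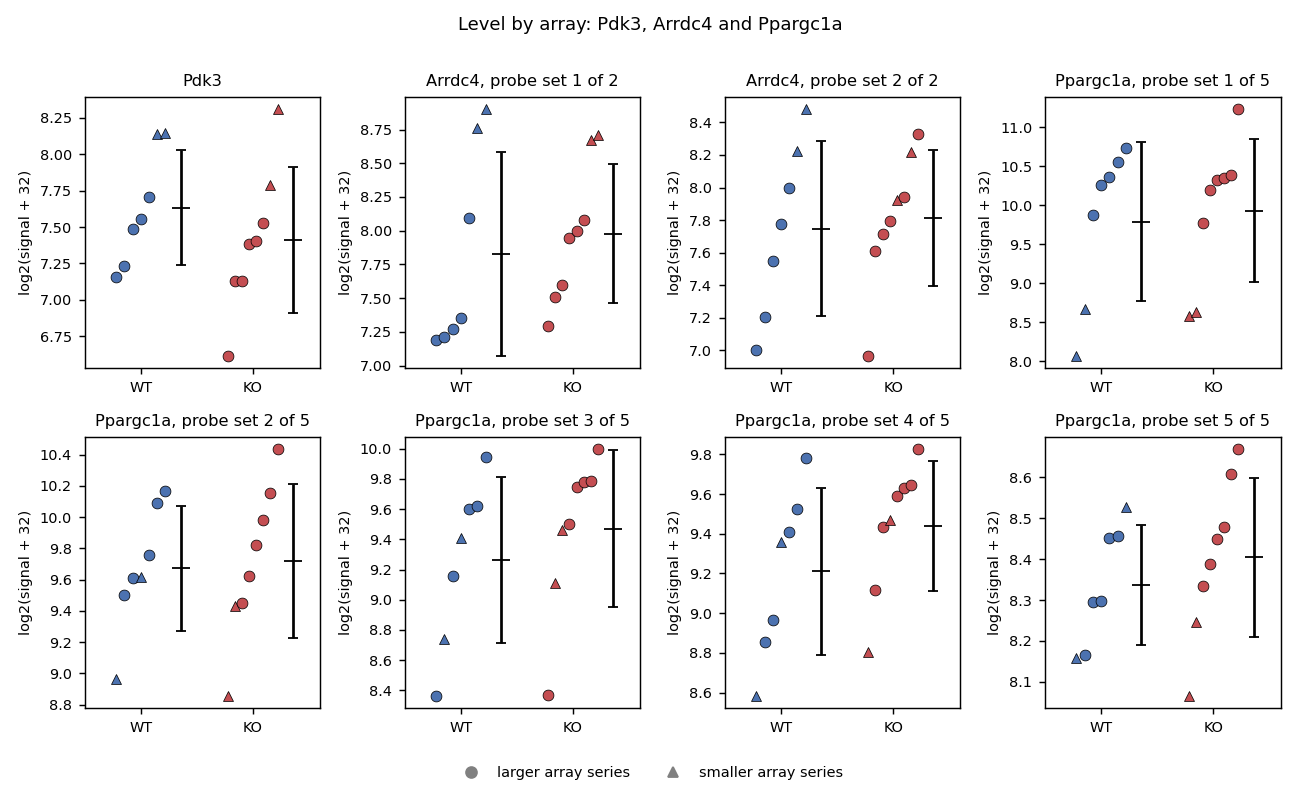
Quantile normalized log2(signal + 32) of Pdk3, of both Arrdc4 probe sets and of the 5 Ppargc1a probe sets in 7 WT and 8 KO arrays, with circles for the larger series, triangles for the smaller series and bars for mean ± SD. The 4 triangles of the brightest Ppargc1a probe set lie at 8.07 to 8.67, under all circles, and those of the brighter Arrdc4 probe set at 8.67 to 8.90, above all circles.

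The CA13-marked arrays gave 1 value per genotype and thus no test, and by the markers above they held different neurons. Pdk4 was at 6.04 in the KO and 6.36 in the WT array, Selenop at 11.91 and 12.53, and Klf15 at 8.04 and 8.79. As labelled, these 3 were lower in KO, while the brighter Txnip probe set was at 7.29 in KO and 6.99 in WT. The unmarked library labelled 433 had marker means near those of the WT array of this pair, 10.96 and 10.98 for CA pyramidal neurons and 7.82 and 7.81 for granule neurons. In it Pdk4 was at 6.43, Selenop at 12.14, Klf15 at 8.62 and the brighter Txnip probe set at 6.06, so that set against the same WT array Pdk4 was no longer lower in KO and Txnip was. At least 2-fold lower in KO were 2 member probe sets, the second and the fourth of Ppargc1a, beside 6.75% of all probe sets. They stood at 9.33 and 8.62 in KO and at 10.71 and 10.10 in WT. At least 2-fold higher was 1, that of Pdk2 with 6.75 against 5.29, beside 7.32% of all probe sets. Genotype and neuron type cannot be told apart in this pair.

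The genes around the members were taken in 12 lists with 124 measured genes, each by its brightest probe set, and 0 of the 124 passed between KO and WT. Over the 18193 genes 0.011% passed, and at an unadjusted p under 0.05, 1.52% were lower and 1.53% higher, against 1 and 3 of the 124. The 1 was Arrdc3, an arrestin of the same family as Txnip, with -0.42 (standard error 0.14). The WT mean was 8.13 ± 0.20 (SD, n = 7), the KO mean was 7.71 ± 0.21 (SD, n = 8), and the difference was -0.45 in the larger series and -0.36 in the smaller. The 3 were Slc25a20, the carrier of acylcarnitines into mitochondria, with 0.88 (standard error 0.38), Klf10 with 0.37 (standard error 0.15) and the glycolytic enzyme Pgam1 with 0.22 (standard error 0.10).

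In the list of the pyruvate dehydrogenase complex, the substrate of the kinases, and its phosphatases (8 genes) the median was 0.02, and Pdha1, a catalytic subunit, had 0.27 and Pdpr -0.13. The pyruvate and lactate genes (8 of 9 measured, median 0.01) had Ldha, lactate dehydrogenase, at 0.23 and the transporter Slc16a7 at 0.30. The glycolysis list (14 of 16, median 0.01) had Hk1, a hexokinase, at 0.25. The fatty acid oxidation list (9 of 10, median 0.03) had Cpt2 at -0.19.
The glucose sensors that switch on Txnip and Arrdc4 (3 genes, median 0.14) had Mlxipl (ChREBP) at 0.26 and Mlxip (MondoA) at 0.14. The other arrestins (3 genes, median -0.03) had Arrdc2 at 0.27. The thioredoxin list (8 of 10, median -0.04) had the reductases Txnrd1 at 0.27 and Txnrd2 at -0.13.
Selenium handling and selenoproteins (24 genes, 16 positive and 8 negative, median 0.09) had Selenon at -0.41 and Lrp8, the brain receptor of Selenop, at -0.33 (standard error 0.24). The partners of Ppargc1a (12 genes, median 0.07) had its relative Ppargc1b at 0.34 and Ppara at -0.42. The FOXO targets of liver (10 genes, median -0.11) had Fbp1 at 0.45 and Igfbp1 at -0.41. Glucocorticoid-responsive genes (14 genes, median 0.01) had Cdkn1a at 0.48 and Errfi1 at 0.21, and the Krüppel-like factors (12 genes, median -0.07) had Klf7 at -0.27. None of these passed, and the median over all genes was 0.01. Several of them have probe sets that point both ways, from -0.37 to 0.26 in Pdpr, -0.23 to 0.25 in Hk1, -0.19 to 0.07 in Cpt2, -0.10 to 0.27 in Txnrd1, -0.15 to 0.03 in Txnrd2, -0.33 to 0.11 in Lrp8, -0.42 to 0.12 in Ppara and -0.27 to 0.15 in Klf7.

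Between the array series 11 of the 124 genes were higher in the smaller series and 6 lower at an adjusted p of 0.05, beside 6.33% and 4.24% of all genes. The list of selenium handling and selenoproteins gave 4 of the 11, Gpx4 with 1.70, Selenom with 1.23, Sephs1 with 0.80 and Gpx1 with 0.79, out of its 24 genes. Glycolysis gave 3 of 14, Aldoa with 0.86, Aldoc with 0.69 and Pfkm with 0.64. The metallothioneins Mt1 and Mt2 had 0.84 and 0.80, Slc25a20 1.15 and Pcx 0.72. The 6 lower were Klf3 with -0.87, Klf12 with -0.83, Gabpa with -0.77, Hadhb with -0.72, Esrrg with -0.55 and Txnl1 with -0.36, and of these Esrrg and Gabpa are transcription factors that work with Ppargc1a. Probe sets of the same gene differed in sign for Aldoa (-0.44 to 1.14), Sephs1 (-0.45 to 0.80), Klf3 (-0.87 to 0.25), Klf12 (-0.83 to 0.10), Hadhb (-0.72 to 0.22) and Txnl1 (-0.42 to 0.08).

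**Figure D5:**
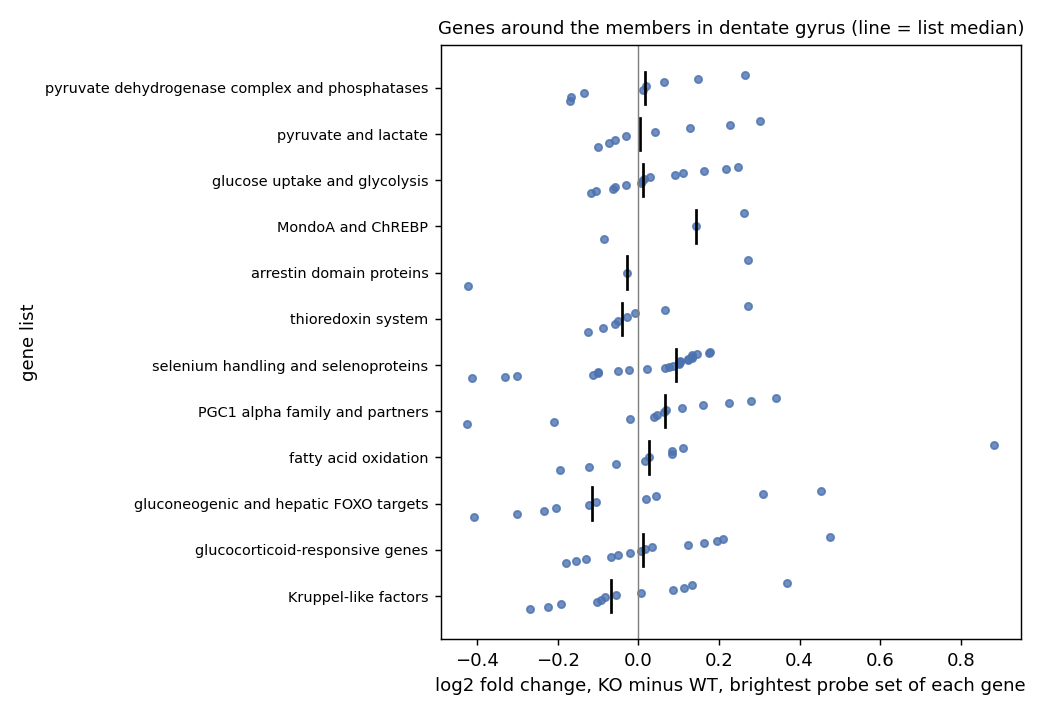
KO minus WT log2 fold change of 124 genes around the members, 1 point for the brightest probe set of each gene, in 12 lists (Klf9 stands in 2 of them), with a line at each list median. The medians lie between -0.11 and 0.14, and the point farthest from 0 is Slc25a20 at 0.88.

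The genes whose deviations from the group means were most like those of each lead member over the 14 arrays without the library labelled 433 were chosen from 18706 probe sets of above-median level. For Pdk4 they were Serf1 (r = 0.81), Map4 (0.81) and Il1rap (0.80), whose r over all 15 arrays was 0.72, 0.56 and 0.73. For Selenop they were Clcn5 (0.85), Tmbim1 (0.84) and Trpm6 (0.83), with 0.75, 0.84 and 0.83 over 15 arrays. For the brighter Txnip probe set they were 4930447F24Rik (0.90), Tap1 (0.87) and Dbi (0.85), with 0.70, 0.71 and 0.86. They are the highest of many values over few arrays and are given as a description. Among the members themselves Pdk4 and Selenop had an r of 0.13.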

How the data were processed

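RNA of 17 mouse brain samples had been hybridised to MOE430 arrays. The authors deposited 1 signal intensity for each probe set on each array in linear units, from 0.112 to 94033. MAS5 is named in the submitters' processing notes, RMA and SAM in the study's methods. RMA was not repeated, since scanner files were not used here, and the linear values took the path set for them. In R 4.3.3, 64 control probe sets were left out, log2(signal + 32) was taken and the unmarked arrays were quantile normalized. limma 3.58.1 was fitted with genotype (eBayes with intensity trend), with genotype and series, and with their product, with Benjamini-Hochberg adjustment over 45037 probe sets. The CA13-marked pair was read after normalizing all 17 arrays. The number of arrays limits the precision, with a median standard error of 0.20.

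Gene names come from the platform annotation, with 34958 probe sets of 1 symbol, 932 of several and 9211 of none, and 34754 were found by Entrez ID in a GRCm38.p6 gene table, which changed 0 symbols. Promoters are RefSeq sequences of that build. The text names every member and Foxo gene, of each list the 2 genes with the smallest p, the 3 genes most like each lead member, and, chosen after their values were seen, the pathway genes that passed between series. Members, lists and tests were chosen with earlier results of these data known. The fit was tested on simulated data. Alternatives covered pseudocount, normalization, a filter on dim probe sets, series, RNA quality, array weights, variance trend and leaving out or replacing arrays.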

Additional observations from a re-analysis of the deposited data

Results flagged for a closer look

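Of 36 groups of member levels checked, 1 held an array far from the others, where chance gives about 1 in 20. The dimmer Txnip probe set was at 6.70 in WT 392, an array of the smaller series, while the next highest WT array was at 5.87, a gap of 0.572 of the range of the group. The brighter Txnip probe set of the same array was at 7.93, below WT 393 at 8.05.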

How the results depend on the processing

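Under 26 alternatives 0 member probe sets and 0 of the 124 pathway genes passed between KO and WT. The log2 fold change of Selenop stayed between -1.44 and -0.39. That of Pdk4 stayed between -0.77 and -0.33 over 25 alternatives, since the filter on dim probe sets left its probe set out. Over all probe sets the count of 6 was 3 within the larger series, 0 within the smaller series, and 3 to 8 with each array left out, the 3 without WT 437. The cause was not tested.

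The array series difference passed for 4422 probe sets, for 2148 with RNA quality as a covariate, and for 1544 (without WT 392) to 5450 with each array left out, 1919 without KO 390. Of the members 5 passed, 2 with RNA quality, and 2 (without KO 390) to 5 with each array left out, 3 without WT 392. The calls of the brighter Arrdc4 and the brightest Ppargc1a probe set held in 23 of 23 alternatives, that of Pdk3 in 21, of the second Pdk1 probe set in 19 and of the second Ppargc1a probe set in 13. The interaction called 0 probe sets, and 0 to 47 with each array left out, 47 without WT 393 and 6 without KO 391. Leaving out an array of the smaller series leaves 1 array of a genotype in it, assumed to vary like the others.

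Uncalled series differences changed sign. That of Pdk4 was -0.023 without quantile normalization and that of Pdk2 0.052 with RNA quality. With each array left out the third Pdk1 probe set had -0.30 to 0.13, Pdk4 -0.19 to 0.23, Pdk2 -0.42 to 0.17 and Selenop -0.078 to 0.24. No paired analysis was possible because the labels hold no number that ties a KO sample to a WT sample.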
